A study of Mus musculus with 12 samples.

Results

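The genes examined here, S100a8, S100a9, Mmp9, Csf3r, Retnlg, Hdc and Srgn, are known for their transcripts in mature neutrophils, and were compared between neutrophils of the spleen and of the injured liver. They were chosen by name and matched to the deposited count table by their Ensembl identifiers, which found all 7 of them among 48709 genes. All 7 passed the filter on low counts, which left 12488 genes for testing. Neutrophils had been sorted as Ly6G hi, Ly6C int, CD11b+ and CD45+ cells (purity above 95%) from male C57BL/6N mice of 8 to 10 weeks. The 3 control libraries came from the spleens of untreated mice, and 4 and 5 libraries came from livers taken 24 and 72 hours after a single intraperitoneal injection of carbon tetrachloride (1 mL/kg in corn oil), a hepatotoxin. All mice were wild type, with no transgene or deletion given in the sources used here. Because the control cells came from another organ, the organ and the injury cannot be told apart in the comparisons with spleen. Both of these comparisons also share the same 3 spleen libraries. The sources do not say whether a library came from 1 mouse or from pooled mice, so that p-values measure the spread between libraries, which may be technical in part.

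Neutrophils are short-lived phagocytes that leave the bone marrow after filling, in sequence, azurophil, specific and gelatinase granules. S100a8 and S100a9 encode the calcium-binding subunits of calprotectin, a cytosolic protein that sequesters metals and acts as an alarmin once released. Mmp9 encodes the gelatinase stored in the last granules to form, and Srgn encodes serglycin, the proteoglycan core on which granule proteins are packed. Csf3r encodes the receptor for granulocyte colony-stimulating factor (G-CSF), Retnlg a secreted resistin-like protein, and Hdc the enzyme that makes histamine from histidine.

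The libraries held between 1267089 and 3017403 counts on genes, so that 1 count was worth 0.310 to 0.729 CPM, the unit used below (counts scaled to a common library total with edgeR's TMM factors). The libraries were stranded, and the strand option given to the read counter is not stated in the sources used here. Only 2.71% to 3.18% of each library's uniquely aligned reads fell on a gene. Genes with exons under an exon of another gene on the opposite strand held 82.4% to 89.3% of the counts. Of the 20 genes with the most counts, 20 had such exons, against 39.8% of the tested genes. None of the 7 genes shares an exon base with another gene on either strand. From the counts it cannot be told which strand of a gene the reads came from, and the values below are the counted reads of each locus. Whether reads were counted on the strand of the transcript or on the opposite strand was not tested. Levels, rises and falls given below refer to these counted reads. The 7 genes together held 0.0983% to 0.847% of the counts on genes, and their ranks by counts among all genes ran from 20 to 1847. S100a9 ranked 20 and 21 and S100a8 ranked 99 and 97 in spleen replicates 1 and 2, and no other rank of the 7 genes in any library was better than 162. Of 9 markers that define neutrophils, all were tested, and their summed level was 1048 to 1559 CPM in spleen, 533 to 1367 at 24 hours and 857 to 1285 at 72 hours. By the edgeR test defined below, Trem1 was called higher and Cd177 lower at both times, and Ly6g and Mmp8 lower at 72 hours only. Ly6g, the gene of a sorting marker, was 9.33 to 37.7 CPM in spleen, 2.19 to 25.2 at 24 hours and 1.04 to 11.7 at 72 hours. Its call was lost without spleen replicate 1 or 2. The 24-hour calls of Trem1 and Cd177 were each lost in 5 of 12 fits that left out 1 library. In bulk samples, fewer cells of a type and less RNA per cell cannot be told apart.

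Some libraries stood apart from others of their group. Spleen replicate 3 differed from spleen replicates 1 and 2 in many genes, S100a8 and S100a9 among them, and the calls of the 7 genes and of the gene lists that change without it are given both ways. Spleen replicates 1 and 2 were the most alike of all pairs within groups, although they differed by more than sampling noise (chi-square per degree of freedom 2.47, against 6.72 to 41.3 in the other pairs). This difference cannot tell 2 mice from 2 libraries of 1 source. They were kept as 2 samples, and results with the pair summed as 1 library are given below. In 72-hour replicates 2 and 3, the share of unaligned reads was as low as 1.91%, against a median of 50.2% over all libraries.

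In the fit of all 12 libraries, S100a8 and S100a9 were lower in liver than in splenic neutrophils at both times. For both genes, however, spleen replicate 3 lay below every 72-hour library. Srgn was higher than in spleen at 72 hours, and Csf3r was higher at 72 than at 24 hours. A gene was called where edgeR's quasi-likelihood test with Benjamini-Hochberg adjustment, over all 12488 tested genes, gave an adjusted p under 0.05 and the log2 fold change was 0.5 or more in size. At 24 hours, 2 of the 7 genes were called, both lower, where 9.75% of all tested genes were called, 5.35% higher and 4.4% lower. At 72 hours, 3 of the 7 genes were called, 2 lower and 1 higher, against 5.33% of all tested genes (2.63% higher and 2.71% lower). Between 72 and 24 hours, 1 of the 7 genes was called, higher, against 4.49% of all tested genes (1.65% higher and 2.84% lower). DESeq2 called 3, 1 and 1 of the 7 genes in these comparisons, and 1569, 868 and 986 of the 12488 tested genes. limma-voom called 1, 1 and 1 of the 7 genes, and 1200, 759 and 560 of the 12488. The libraries of the groups did not overlap for 2 of the 7 genes at 24 hours, both below spleen, where this held for 22.8% of all tested genes (9.76% above and 13% below). They did not overlap for 1 gene at 72 hours (12% of all tested genes, 5.59% above and 6.37% below) and for 1 gene between the times (9.51%, with 4.49% above and 5.02% below). The median log2 fold change of the 7 genes was -0.61 at 24 hours, -0.57 at 72 hours and 0.71 between 72 and 24 hours. The medians of all tested genes were -0.23, -0.02 and 0.18.

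**Figure D1:**
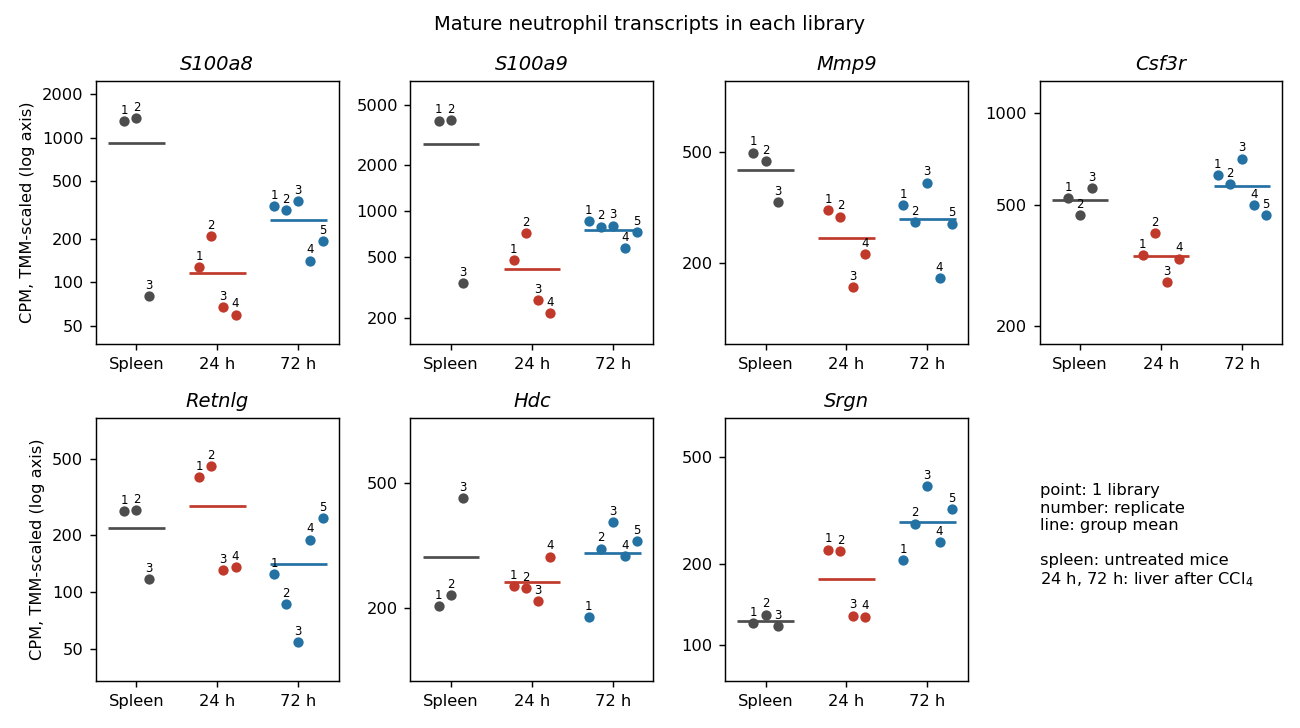
TMM-scaled CPM (log axis) of the 7 genes in each of 12 libraries. Points are libraries numbered by replicate and lines are group means. S100a8 and S100a9 stood at 1308 or above and 3937 or above in spleen replicates 1 and 2, whereas spleen replicate 3 (80.1 and 339) lay among the liver libraries.

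**Figure D2:**
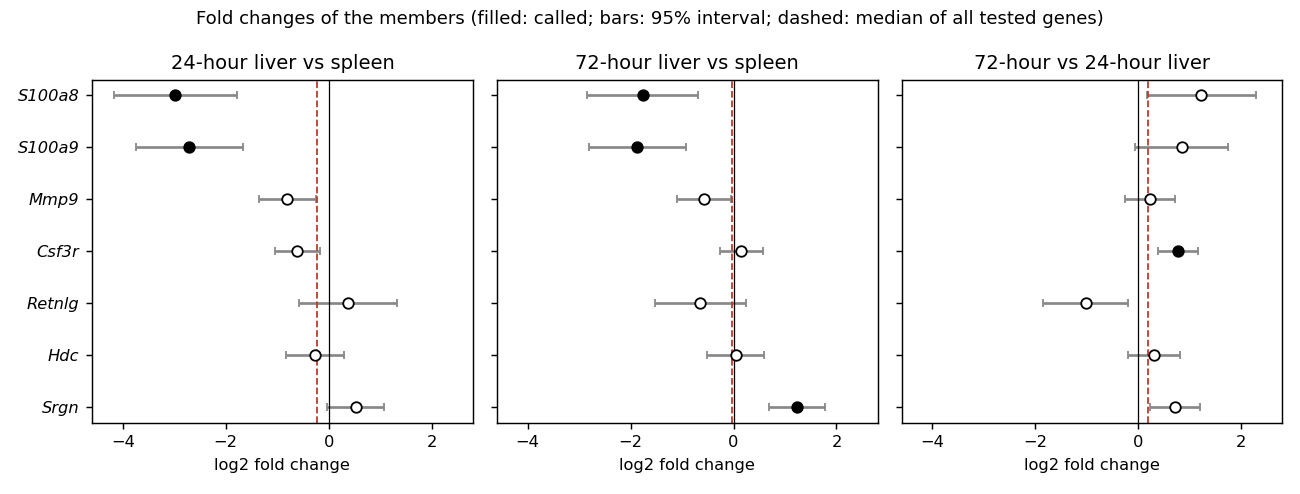
Log2 fold changes of the 7 genes in the 3 comparisons, with 95% intervals from the quasi-likelihood fit. Filled points were called and dashed lines mark the median of all 12488 tested genes. S100a8 (-2.98) and S100a9 (-2.71) had the lowest values of the 7 genes at 24 hours.

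S100a8 (ENSMUSG00000056054.9) and S100a9 (ENSMUSG00000056071.12) lie next to each other on chromosome 3 of GRCm38, at chr3:90668978-90670035 on the plus strand and chr3:90692632-90695721 on the minus strand, with 22.6 kb between them. Their promoters are printed because these neighbouring genes, annotated on opposite strands, had the most alike levels of the 7 over the libraries. The windows run from 250 bases before to 30 bases after the RefSeq start (GRCm38.p6), at chr3:90668821-90669100 (plus strand) and chr3:90695692-90695971 (minus strand). Capitals mark matches, on either strand, to TATAAA and to TTNNGNAA, a loose form of the C/EBP site.
S100a8: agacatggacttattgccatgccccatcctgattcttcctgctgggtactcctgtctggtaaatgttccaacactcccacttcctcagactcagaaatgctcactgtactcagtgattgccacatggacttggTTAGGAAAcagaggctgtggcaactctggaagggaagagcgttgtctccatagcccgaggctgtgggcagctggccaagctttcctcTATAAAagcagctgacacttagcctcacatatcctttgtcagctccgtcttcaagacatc
S100a9: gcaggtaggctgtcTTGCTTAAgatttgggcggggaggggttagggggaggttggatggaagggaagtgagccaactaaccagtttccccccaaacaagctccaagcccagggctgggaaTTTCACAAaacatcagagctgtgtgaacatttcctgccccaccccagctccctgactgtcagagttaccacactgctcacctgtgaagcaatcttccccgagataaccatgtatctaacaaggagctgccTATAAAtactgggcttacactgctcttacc
The S100a8 window held 1 match to TATAAA, 30 bases before the start, and 1 to TTNNGNAA, 117 bases before it. The S100a9 window held 1 match to TATAAA at the annotated start and 2 to TTNNGNAA, 236 and 130 bases before it. GAGGAA, a PU.1-like core that is not capitalised, matched 2 times in the S100a8 window and 0 times in the S100a9 window. Of 32851 promoter windows of this length, 13.1% held TATAAA, 39.25% held TTNNGNAA and 25.98% held GAGGAA on either strand. None of the matches overlapped another, and they are a description of the letters only. RefSeq windows were matched for 6 of the 7 genes, all but Mmp9.

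S100a9 had the highest counts of the 7 genes. Its levels were 3937, 3969 and 339 CPM in spleen replicates 1 to 3. At 24 hours they were 481, 723, 260.2 and 215 CPM, and at 72 hours 866, 792, 805, 575 and 727 CPM. Spleen replicates 1 and 2 lay above every liver library and spleen replicate 3 lay below every 72-hour library and inside the 24-hour range, so that the groups overlapped. S100a9 fell from 2748 ± 2087 CPM (SD, n = 3) in spleen to 419.9 ± 233 CPM (SD, n = 4) at 24 hours, a log2 fold change of -2.71 (SE 0.50, edgeR adjusted p = 0.00132) or 6.54-fold lower. At 72 hours it was 753 ± 111 CPM (SD, n = 5), with a log2 fold change of -1.87 (SE 0.46, edgeR adjusted p = 0.0148) or 3.65-fold lower than spleen. From 24 to 72 hours the log2 difference was 0.84 (SE 0.44, edgeR adjusted p = 0.276), which was not called.

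S100a8 followed the same order. Its levels were 1308, 1372 and 80.1 CPM in spleen, 127, 209, 67.2 and 59.8 CPM at 24 hours, and 339, 315, 366, 142 and 193 CPM at 72 hours. Spleen replicates 1 and 2 again lay above all liver libraries, spleen replicate 3 lay inside the 24-hour range and below the 72-hour range, and 24-hour replicate 2 overlapped 72-hour replicates 4 and 5. Against 920.0 ± 728 CPM (SD, n = 3) in spleen, S100a8 fell to 116 ± 69.2 CPM (SD, n = 4) at 24 hours, a log2 fold change of -2.98 (SE 0.58, edgeR adjusted p = 0.00191) or 7.91-fold lower. At 72 hours, 271 ± 97.8 CPM (SD, n = 5) gave a log2 fold change of -1.76 (SE 0.52, edgeR adjusted p = 0.0496) or 3.39-fold lower. The log2 difference of 1.22 between 72 and 24 hours (SE 0.51, edgeR adjusted p = 0.170) was not called.

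The size of the fall in both genes depended on spleen replicate 3. Without it, S100a8 was 11.5-fold lower at 24 hours and 4.94-fold lower at 72 hours than spleen, and S100a9 was 9.41-fold and 5.26-fold lower, with all 4 differences called. With the other 11 libraries 10.6%, 6.59% and 6.52% of tested genes were called in the 3 comparisons, and S100a8 was also called between 72 and 24 hours (log2 fold change 1.22, edgeR adjusted p = 0.0225, against 1.5e-05 to 0.424 over all 25 alternatives). At 24 hours, both genes stayed called when any one library was left out. With limma-voom S100a8 was not called at 24 hours (log2 fold change -2.28, adjusted p = 0.0663), while S100a9 was called in all 25 alternatives (adjusted p up to 0.0398). At 72 hours, S100a9 lost its call without spleen replicate 1 (edgeR adjusted p = 0.130) or spleen replicate 2 (edgeR adjusted p = 0.137). S100a8, whose adjusted p stood just under the threshold, lost its 72-hour call whenever a library other than spleen replicate 3 or 24-hour replicate 2 was left out, in 10 of 12 cases, for example with an edgeR adjusted p of 0.266 without spleen replicate 1. Without spleen replicates 1 or 2 the 72-hour log2 fold change was -1.42 or -1.36 for S100a8 and -1.52 or -1.51 for S100a9. Summing spleen replicates 1 and 2 as 1 library, chosen after seeing the data, gave -1.40 for S100a8 and -1.52 for S100a9 at 72 hours. Neither was then called (edgeR adjusted p = 0.268 and 0.131), while both 24-hour calls held (edgeR adjusted p = 0.0148 and 0.0121). With limma-voom the 72-hour log2 fold changes were -0.94 for S100a8 and -1.16 for S100a9, and neither was called. Over all 25 alternatives these values ran from -2.31 to -0.92 and from -2.39 to -1.16, and the adjusted p ranged from 5.6e-12 to 0.459 for S100a8 and from 1.1e-15 to 0.260 for S100a9.

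The ratio of the subunits' counts moved far less than their levels. S100a8 counts per S100a9 count were 0.332, 0.346 and 0.236 in spleen and 0.265, 0.289, 0.258 and 0.278 at 24 hours. At 72 hours the ratio was 0.391, 0.397 and 0.454 in replicates 1 to 3 and 0.247 and 0.266 in replicates 4 and 5. The 95% counting interval of 72-hour replicate 1 (0.356 to 0.430) lay above that of 72-hour replicate 5 (0.233 to 0.303). Spleen replicate 3, in which both genes were low, had the lowest ratio of all, with an interval of 0.205 to 0.272 that overlapped those of all 24-hour libraries. These intervals cover counting error only. Across the 12 libraries, log2 CPM of the pair had a Pearson r of 0.98 (a description, n = 12).

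**Figure D3:**
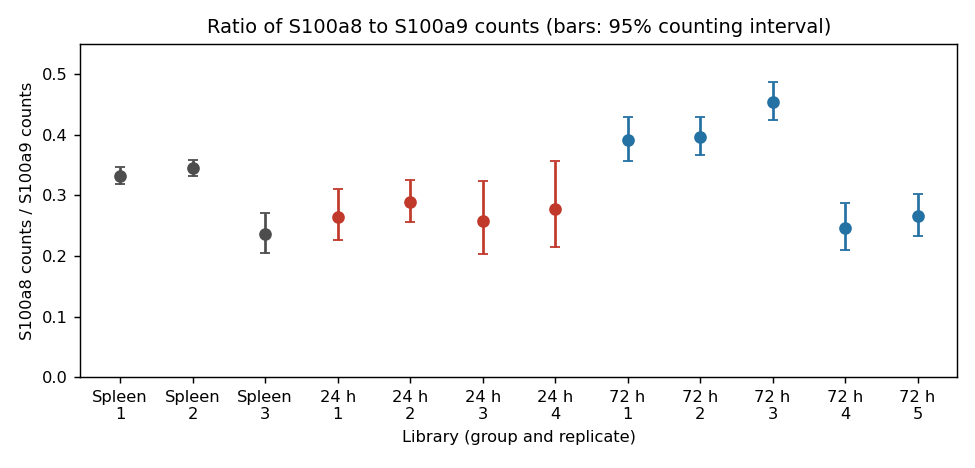
Ratio of S100a8 to S100a9 counts in each library with exact 95% binomial counting intervals. The 3 highest ratios were those of 72-hour replicates 1, 2 and 3 (0.391 to 0.454).

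Of the other S100 genes and the receptors of S100 proteins, 8 of 11 listed genes were tested and 0 were called in any comparison by edgeR, by DESeq2 or by limma-voom. At an unadjusted p below 0.05 there were 2 of 8 at 24 hours, 2 of 8 at 72 hours and 1 of 8 between the times. The count of 0 at 24 hours depended on the libraries used, since edgeR called S100a6 and S100a11 lower without spleen replicate 3 (2 of 8) and S100a11 lower without 72-hour replicates 2 and 3 (1 of 8). S100a6, another calcium-binding protein of the family, was 65.9, 48.2 and 10.6 CPM in spleen replicates 1 to 3 and 9.48 to 31.1 CPM in the liver libraries. The median log2 fold change of the 8 genes was -0.77, -0.29 and 0.40 in the 3 comparisons.

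Spleen replicate 3 also stood apart in granule genes of neutrophils still maturing in the marrow. Ltf, which encodes lactotransferrin of the specific granules, was 1712, 1637 and 208 CPM in spleen replicates 1 to 3 and 0.707 to 13.9 CPM in the liver libraries. Ngp was 1895, 1891 and 339 CPM in spleen and 2.48 to 53.0 CPM in liver, and Camp, the cathelicidin gene, was 169.8, 175 and 8.04 CPM in spleen and at most 2.08 CPM in liver. In spleen replicate 3, Ltf and Ngp therefore stayed above all liver libraries while S100a8 and S100a9 did not. Of 11 listed markers of immature neutrophils, 7 were tested and 5 (Ltf, Ngp, Camp, Chil3 and Top2a) were called lower in liver at both times. The calls of Top2a were lost in 5 and 4 of 12 fits with a library left out, while those of the other 4 held. The summed level of the list was 2610 to 4666 CPM in spleen, 884 to 1279 at 24 hours and 973 to 1528 at 72 hours. Most of the liver sum was Mki67, which was not called and was 805 to 1485 CPM there, while Top2a was at most 1.24 CPM. Unlike the 5 called genes, Mki67 was highest in spleen replicate 3 (674, 702 and 2008 CPM in replicates 1 to 3). Mpo, Elane, Ctsg and Ms4a3, which mark earlier stages, had 3 counts or fewer in every library. Prtn3 of the same list was tested and not called. It was 0.464 to 2.57 CPM in spleen, 0 to 10.7 CPM at 24 hours (at most 17 counts) and 0 to 4.84 CPM at 72 hours. The part of such cells in the differences of S100a8 and S100a9 was not tested.

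**Figure D4:**
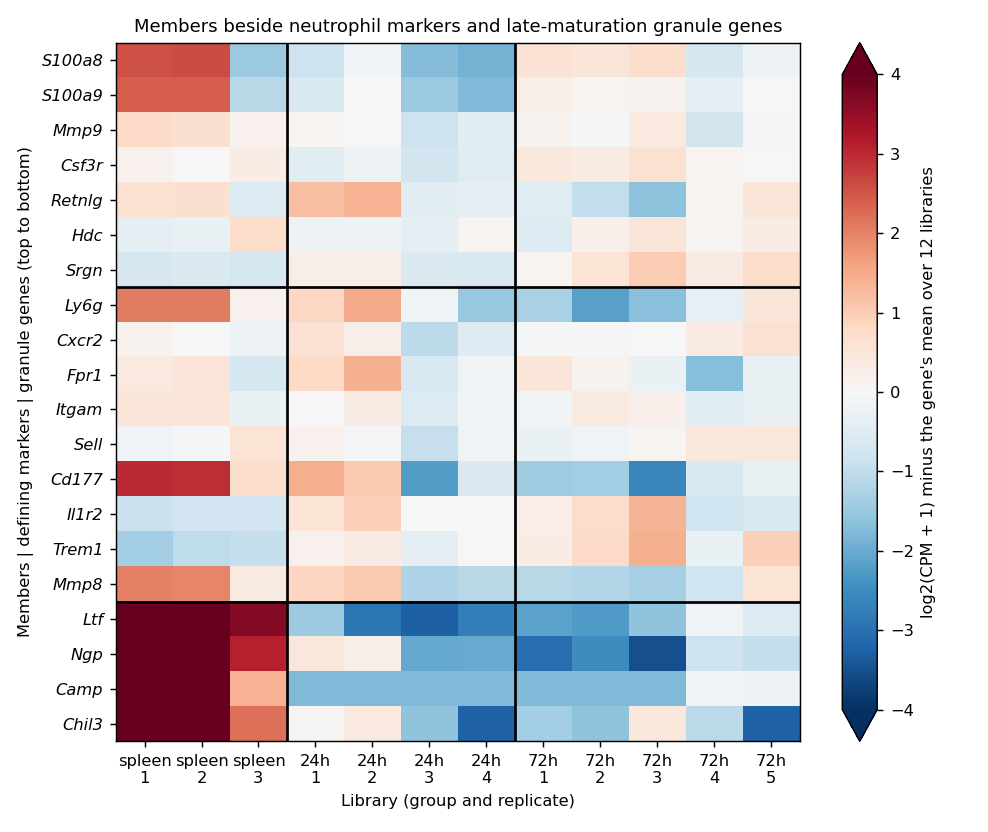
Log2(CPM + 1) minus the mean of the gene over 12 libraries for the 7 genes (top), 9 neutrophil markers (middle) and 4 granule genes of late maturation (bottom). Spleen replicates 1 and 2 share high S100a8, S100a9, Cd177 and granule genes, and spleen replicate 3 keeps higher Ltf (208 CPM) and Ngp (339 CPM) than any liver library.

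Mmp9 (ENSMUSG00000017737.2, chr2:164940780-164955850, plus strand) was lower in liver in value at both times without reaching a call. Its levels were 498, 464 and 330.2 CPM in spleen, 310.3, 294, 165 and 217 CPM at 24 hours, and 323, 281, 388, 177 and 278 CPM at 72 hours. All 24-hour libraries lay below all spleen libraries, as they did for 13% of all tested genes, whereas 72-hour replicate 3 reached above spleen replicate 3. The log2 fold change was -0.80 (SE 0.27, edgeR adjusted p = 0.0571) at 24 hours and -0.57 (SE 0.25, edgeR adjusted p = 0.232) at 72 hours. Without spleen replicate 3, Mmp9 was called at 24 hours (log2 fold change -0.96, edgeR adjusted p = 0.0273), as it also was without 24-hour replicate 1 (0.0489), 72-hour replicate 3 (0.0489) or 72-hour replicate 4 (0.0349), and the adjusted p ranged from 0.0211 to 0.205 over all 25 alternatives. Between 72 and 24 hours the log2 difference was 0.23 (SE 0.24, edgeR adjusted p = 0.614).

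Among 12 listed genes of metalloproteinases, their inhibitors and lipocalin 2, 10 were tested. edgeR called 1 gene lower at 24 hours (Lcn2), 2 at 72 hours (Mmp8 and Lcn2) and 1 between 72 and 24 hours (Mmp25), and none higher. At 24 hours DESeq2 called Mmp19 and not Lcn2, and limma-voom called 0. Between the times DESeq2 called Mmp19 and Mmp25, and limma-voom called 0. All 3 tools called Mmp8 and Lcn2 at 72 hours. Mmp19 was 57.6 to 67.7 CPM in spleen, 87.0 to 163 CPM at 24 hours and 50.4 to 81.1 CPM at 72 hours. Lcn2, which encodes lipocalin 2, was 388, 323 and 49.2 CPM in spleen, 22.6 to 114 CPM at 24 hours and 15.3 to 48.8 CPM at 72 hours. All 72-hour libraries were below all spleen libraries, and the log2 fold change was -2.96 (SE 0.52, edgeR adjusted p = 0.000844). Mmp8, the neutrophil collagenase, had a log2 fold change of -2.23 at 72 hours (SE 0.49, edgeR adjusted p = 0.00614), with 72-hour replicate 5 (98.0 CPM) above spleen replicate 3 (84.9 CPM). This call of Mmp8 was lost without 72-hour replicates 2 and 3 together, as was that of Mmp25, and Mmp8 was also called lower at 24 hours without spleen replicate 3. Mmp25, a membrane-bound metalloproteinase of neutrophils, was 48.5 CPM on average at 24 hours and 20.6 CPM at 72 hours (log2 fold change -1.23, SE 0.33, edgeR adjusted p = 0.0346), and its call was lost without any one of 24-hour replicates 1 and 2 or 72-hour replicates 3, 4 and 5, with adjusted p up to 0.154. The 24-hour call of Lcn2 was lost in 4 of 12, with adjusted p up to 0.133 without one of spleen replicates 1 and 2 or 24-hour replicates 3 and 4.

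Srgn (ENSMUSG00000020077.14, chr10:62493833-62527451, minus strand) was the one gene of the 7 that was called higher in liver than in spleen. Its levels were 121, 129.8 and 118 CPM in spleen, 226, 224, 128.7 and 128 CPM at 24 hours, and 207, 283, 389.7, 241 and 319.9 CPM at 72 hours. Every 72-hour library lay above every spleen library, which held for 5.59% of all tested genes, and 24-hour replicates 3 and 4 lay inside the spleen range while replicates 1 and 2 lay above it. From 123 ± 6.23 CPM (SD, n = 3) in spleen, Srgn rose to 288 ± 71.1 CPM (SD, n = 5) at 72 hours, a log2 fold change of 1.23 (SE 0.26, edgeR adjusted p = 0.0050) or 2.35-fold. The call held in all 25 alternatives, with log2 fold changes of 1.06 to 1.33 and adjusted p of 0.000226 to 0.0425. At 24 hours Srgn was 177 ± 56.0 CPM (SD, n = 4), with a log2 difference of 0.53 from spleen (SE 0.27, edgeR adjusted p = 0.213), and the 72-hour level differed from it by 0.71 (SE 0.23, edgeR adjusted p = 0.0838). Spleen replicate 3 did not stand apart in Srgn.

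The enzymes that build the glycosaminoglycan chains of serglycin were counted separately. Of 20 listed, 13 were tested, and 1 was called higher at 24 hours (Chst11, a chondroitin 4-sulfotransferase) and 0 in the other comparisons by edgeR, by DESeq2 or by limma-voom. The unadjusted p was below 0.05 for 1 of 13 at 72 hours and for 0 of 13 between the times. Chst11 rose from 14.4 to 27.3 CPM in spleen to 34.2 to 54.7 CPM at 24 hours, without overlap, a log2 fold change of 1.01 (SE 0.30, edgeR adjusted p = 0.0379), and lost its call, with adjusted p up to 0.180, without any one of spleen replicates 1 and 2 or 24-hour replicates 1 and 4. The median log2 fold change of the 13 genes was -0.36, 0.06 and 0.56 in the 3 comparisons.

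Csf3r (ENSMUSG00000028859.14, chr4:126024550-126044440, plus strand) was lowest in the 24-hour libraries. Its levels were 526, 463 and 569 CPM in spleen, 342, 404, 278 and 333 CPM at 24 hours, and 628, 585, 710.0, 499 and 461 CPM at 72 hours. All 24-hour libraries lay below all spleen libraries and below all 72-hour libraries, and spleen and 72-hour libraries overlapped. A complete separation upwards from 24 to 72 hours was found in 4.49% of all tested genes. Between 24 and 72 hours Csf3r rose from 339 ± 51.5 CPM (SD, n = 4) to 577 ± 99.8 CPM (SD, n = 5), a log2 fold change of 0.77 (SE 0.19, edgeR adjusted p = 0.0241) or 1.70-fold, where 1.65% of tested genes were called higher. Against spleen, the log2 fold change was -0.61 at 24 hours (SE 0.21, edgeR adjusted p = 0.0671) and 0.15 at 72 hours (SE 0.20, edgeR adjusted p = 0.805), neither of them called.

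The call of Csf3r rested on small margins. It was lost in 5 of 12 fits that left out 1 library, those without 24-hour replicates 1, 3 or 4 or 72-hour replicates 1 or 3, with log2 fold changes of 0.68 to 0.77 and adjusted p of 0.0567 to 0.0702. It was also lost without 72-hour replicates 2 and 3 together (log2 fold change 0.64, edgeR adjusted p = 0.121), the libraries with few unaligned reads, and when only genes without opposite-strand exons were fitted (0.60, edgeR adjusted p = 0.191). Over all 25 alternatives the log2 fold change was 0.60 to 0.86 and the adjusted p 0.00236 to 0.191. DESeq2 called Csf3r lower than spleen at 24 hours (edgeR adjusted p = 0.0671, DESeq2 adjusted p = 0.0349).

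**Figure D5:**
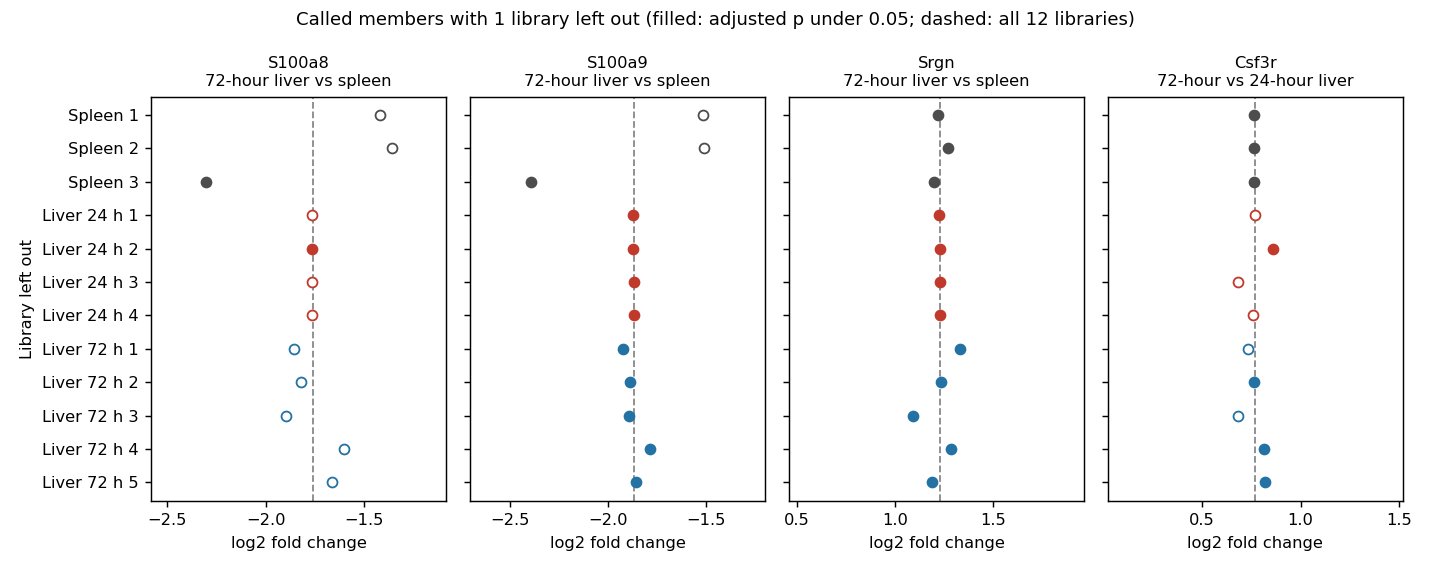
Log2 fold changes of S100a8, S100a9 and Srgn (72-hour liver against spleen) and of Csf3r (72 against 24 hours) when each library was left out. Filled points had an adjusted p below 0.05 and dashed lines give the value with all 12 libraries. Srgn stayed filled in all 12 fits, S100a9 in 10, Csf3r in 7 and S100a8 in 2.

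Of 19 listed genes of the G-CSF receptor pathway, 18 were tested. At 24 hours, 2 were called higher (Cebpb and Socs3) and 1 lower (Cebpe), at 72 hours 1 higher (Cebpb) and 1 lower (Cebpe), and between the times 1 higher (Ptpn6). Cebpb, a transcription factor of emergency granulopoiesis, was 129 to 138 CPM in spleen, 767 to 1111 CPM at 24 hours and 479 to 1318 CPM at 72 hours, with no overlap and log2 fold changes of 2.82 (SE 0.29, edgeR adjusted p = 2e-06) and 2.79 (SE 0.28, edgeR adjusted p = 1.6e-06). Its exons share 312 bases with a gene on the opposite strand, and its reads cannot be told apart from those of that gene. Socs3, the feedback inhibitor of the receptor, was 50.5 to 110.4 CPM in spleen and 165 to 194 CPM at 24 hours, a log2 fold change of 1.02 (SE 0.26, edgeR adjusted p = 0.0133). At 72 hours Socs3 was 135 to 178 CPM, with every library above every spleen library, which held for 5.59% of all tested genes. There DESeq2 and limma-voom called Socs3 and edgeR did not. Cebpe, a factor of the late granulocytic stages, was 39.4, 33.7 and 9.97 CPM in spleen and at most 8.40 CPM at 24 hours (edgeR adjusted p = 0.0148). Ptpn6, a phosphatase that dampens cytokine receptors, was like Csf3r lower in every 24-hour library than in any 72-hour library, with a log2 fold change of 0.93 (SE 0.23, edgeR adjusted p = 0.0248), and shares 195 exon bases with an opposite-strand gene. The calls of Cebpb and Socs3 held when any one library was left out, whereas those of Cebpe at 24 hours, Cebpe at 72 hours and Ptpn6 were lost in 3, 9 and 6 of 12 fits, with adjusted p up to 0.0776, 0.248 and 0.0745. The losses included those without spleen replicates 1 and 2 for Cebpe and those without 24-hour replicates 1, 3 and 4 or 72-hour replicates 1 to 3 for Ptpn6. The calls of Cebpe at 72 hours and of Ptpn6 were also lost without 72-hour replicates 2 and 3 together. The list's median log2 fold change was -0.02, 0.24 and 0.24.

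Retnlg (ENSMUSG00000022651.5, chr16:48872621-48874496, plus strand) had a wide spread within each group and was not called in the fit of all 12 libraries. Its levels were 264, 269.7 and 117 CPM in spleen, 402, 456, 130.1 and 135 CPM at 24 hours, and 124, 86.4, 54.5, 188 and 243 CPM at 72 hours. The 3 groups overlapped, and within the 24-hour group replicates 1 and 2 were high and replicates 3 and 4 low. Mean levels were 217 ± 86.6 CPM (SD, n = 3), 281 ± 173 CPM (SD, n = 4) and 139 ± 76.6 CPM (SD, n = 5). The log2 difference from spleen was 0.37 at 24 hours (SE 0.46, edgeR adjusted p = 0.647) and -0.65 at 72 hours (SE 0.43, edgeR adjusted p = 0.502), and that between 72 and 24 hours was -1.02 (SE 0.40, edgeR adjusted p = 0.145). Over the 25 alternatives the last value was -1.34 to -0.60 with adjusted p of 0.000988 to 0.479, and Retnlg was called lower at 72 than at 24 hours in 2 of them, without a filter on low counts and with the replicate number as a block. Of 5 other genes of the resistin family and its candidate receptors, Retn and Cap1 were tested, and 0 of 2 were called in any comparison by edgeR, DESeq2 or limma-voom, with 0 at an unadjusted p below 0.05. Cap1, a proposed resistin receptor with 129 exon bases under an opposite-strand gene, was 932 to 2045 CPM over all libraries, and Retn, which encodes resistin, was 32.4 to 100.6 CPM.

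Hdc (ENSMUSG00000027360.5, chr2:126593667-126619299, minus strand) was the gene in which spleen replicate 3 stood highest. Its levels were 203, 219 and 448 CPM in spleen, 234, 232, 209 and 291 CPM at 24 hours, and 187, 308, 375, 292 and 326 CPM at 72 hours. All 3 groups overlapped, with spleen replicate 3 above all other libraries and 72-hour replicate 1 below them. The log2 difference from spleen was -0.26 at 24 hours (SE 0.27, edgeR adjusted p = 0.578) and 0.04 at 72 hours (SE 0.26, edgeR adjusted p = 0.973), and that between the times was 0.30 (SE 0.24, edgeR adjusted p = 0.505). Without spleen replicate 3 these values were 0.19 and 0.50 against spleen, neither called.

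Of 9 other genes of histamine storage, breakdown and sensing, 3 were tested (Slc18a2, Hnmt and Hrh2). Slc18a2, the vesicular transporter that loads histamine, was 130 to 163 CPM at 24 hours and 63.9 to 104.9 CPM at 72 hours, a log2 fold change of -0.72 (SE 0.21, edgeR adjusted p = 0.0471), and was the 1 gene called lower between the times. Leaving out any one library other than spleen replicate 3 ended that call, with adjusted p up to 0.105, and so did leaving out 72-hour replicates 2 and 3 together. Slc18a2 shares 111 exon bases with an opposite-strand gene. Against spleen 0 of 3 were called by edgeR at either time. At 24 hours 0 of 3 had an unadjusted p below 0.05 and DESeq2 and limma-voom called 0 as well, while at 72 hours 1 of 3 did and both other tools called 1, Slc18a2. Histamine is also made by mast cells and basophils, and of 10 markers of those cells the summed level was at most 2.32 CPM in spleen, 8.83 CPM at 24 hours and 1.95 CPM at 72 hours, with Mcpt8, Fcer1a and Ms4a2 at 3 counts or fewer in every library.

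Counted reads were also compared between the genes per kilobase of exon, with the limit on strand given above. In spleen the order was S100a9 (5265 ± 3998 CPM per kb, SD, n = 3), S100a8 (1326 ± 1049), Retnlg (366 ± 146), Csf3r (144 ± 14.7), Mmp9 (122 ± 25.0), Srgn (55.9 ± 2.84) and Hdc (45.4 ± 21.4). At 24 hours it was S100a9 (804 ± 447 CPM per kb, SD, n = 4), Retnlg (474 ± 291), S100a8 (167 ± 99.8), Csf3r (93.9 ± 14.3), Srgn (80.4 ± 25.5), Mmp9 (69.6 ± 19.2) and Hdc (37.8 ± 5.46). At 72 hours S100a9 (1442 ± 213 CPM per kb, SD, n = 5) was followed by S100a8 (390.3 ± 141), Retnlg (235 ± 129), Csf3r (160 ± 27.6), Srgn (131 ± 32.4), Mmp9 (81.8 ± 21.8) and Hdc (46.6 ± 10.9). In spleen, S100a9 and S100a8, S100a8 and Retnlg, Csf3r and Mmp9, and Srgn and Hdc differed by less than the larger SD of the pair. At 24 hours the same held for S100a9 and Retnlg, S100a8 and Csf3r, Csf3r and Srgn, and Srgn and Mmp9, and at 72 hours for Retnlg and Csf3r, and Csf3r and Srgn. All other neighbours in the order differed by more than that. This SD is the spread between libraries, although both genes of a pair were counted in the same libraries. Within single libraries, S100a9 was above S100a8 in all of spleen and above Retnlg in all at 24 hours. For the other pairs named here the order varied between libraries. S100a9 had the highest mean in each group. Srgn was below Mmp9 in spleen and above it in both liver groups, beyond the larger SD in spleen and at 72 hours.

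Over the 12 libraries the 7 genes did not move as one group. Besides the S100 pair, Mmp9 had a Pearson r of 0.80 with S100a8 and 0.78 with S100a9 on log2 CPM, while Hdc had -0.36 and -0.38, Srgn 0.05 and -0.04, and Retnlg with Csf3r -0.48. These are descriptions over 12 libraries of 3 groups, which share the group differences and the scaling. Among 5036 other genes with a mean of at least 10 CPM, the closest to S100a8 were Myl6 (r = 0.94) and S100a6 (0.93), and to S100a9 Hmgb2 (0.95) and Myl6 (0.93). The closest to Mmp9 were Sp100 (0.94) and Dgat1 (0.88), to Csf3r Txnip (0.95, with 606 exon bases shared on the opposite strand) and Arhgap45 (0.95), and to Retnlg Atxn10 (0.98) and Glipr2 (0.97). Those closest to Hdc were Smad3 (0.84) and H2-Q10 (0.77), and to Srgn the C-type lectin gene Clec4d (0.96) and Lmbrd1 (0.93).

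Other genes known for their transcripts in mature neutrophils moved in both directions. Of 37 tested, 4 were called higher and 6 lower at 24 hours, 7 higher and 6 lower at 72 hours, and 5 higher and 0 lower between 72 and 24 hours. Without spleen replicate 3 these counts were 5 higher and 9 lower, 8 higher and 7 lower, and 6 higher and 2 lower. Without 72-hour replicates 2 and 3 they were 6 higher and 5 lower, 6 higher and 3 lower, and 1 higher (Tyrobp) and 0 lower. Their median log2 fold change was -0.21, 0.06 and 0.04. At 24 hours the 4 with the smallest adjusted p were Dusp1, a phosphatase of MAP kinases (56.1, 50.02 and 121 CPM in spleen and 239 to 371 CPM at 24 hours, log2 fold change 1.95), Cd14, the lipopolysaccharide co-receptor (5.10 to 6.75 CPM and 52.3 to 88.3 CPM, 3.59), Lyz2, which encodes lysozyme (-1.99), and Anxa1, which encodes annexin A1 (-2.03). At 72 hours they were Dusp1 (2.79), Cd177, a neutrophil surface protein (-3.67), Cd14 (3.48) and Lyz2 (-2.10). Between the times Tyrobp, an immune receptor adaptor (1.02), B2m, the light chain of MHC class I (1.17), Tmsb4x, which encodes thymosin beta-4 (1.12), and Samhd1, a nucleotide hydrolase (0.75), led the calls. Lyz2, Anxa1 and Cd177 were, like S100a8 and S100a9, lower in spleen replicate 3 (212, 152 and 82.3 CPM) than in replicates 1 and 2 (818 and 919, 581 and 629, and 404 and 399 CPM). The calls named here against spleen, and that of Tyrobp, held when any one library was left out. The call of Samhd1 was lost in 9 of 12 such fits, that of Tmsb4x in 7 and that of B2m in 3 (without 24-hour replicates 1 or 4 or 72-hour replicate 3), with adjusted p no higher than 0.1004, 0.0911 and 0.0554.

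Levels of markers of other cell types differed between the lists. The summed level of 11 monocyte and macrophage markers was 91.3 to 152 CPM in spleen. It was 135 to 206 CPM at 24 hours and 125 to 189 CPM at 72 hours. The 24-hour sums lay within the 24-hour ranges of S100a8 (59.8 to 209 CPM) and Srgn (128 to 226 CPM). Most of each sum was Csf1r (873 exon bases under an opposite-strand gene). C1qa, C1qb, C1qc, Clec4f and Timd4 had 3 counts or fewer in every library. Adgre1 had 9 to 27 counts and Vsig4 5 to 102 counts, both with the most counts in spleen replicate 3. In CPM, Vsig4 was highest there too, whereas Adgre1 was highest in 72-hour replicate 5. Summed over 10 hepatocyte markers the level was 2.32 to 6.11 CPM in spleen, 14.9 to 19.8 CPM at 24 hours and 3.24 to 30.02 CPM at 72 hours. At 72 hours Alb, Fgb and Ahsg were highest in replicates 2 and 3, the libraries with few unaligned reads. Alb had 13 and 33 counts in these and at most 1 count in the other 72-hour libraries. Apoa2 was called higher at 24 hours (log2 fold change 2.07, edgeR adjusted p = 0.00888), but not without spleen replicate 1 or 2 (up to 0.0601). Between the times DESeq2 and limma-voom called Apoa2, which was lower at 72 hours, and edgeR did not. Markers of B cells (29.7 to 64.0 CPM), T and NK cells (1.20 to 7.07 CPM), erythroid cells (0.345 to 5.84 CPM), platelets (0 to 3.62 CPM) and endothelial and stellate cells (34.7 to 79.7 CPM) held no called gene in any comparison, and of their genes Ighm alone had an unadjusted p below 0.05, at 24 hours and between the times, where DESeq2 called it. The summed eosinophil markers were 8.34 to 11.9 CPM in spleen and 14.9 to 31.3 CPM at 72 hours, nearly all of it Siglecf, which was called higher (log2 fold change 1.43, edgeR adjusted p = 0.0374) but not without any one of spleen replicates 1 and 2 or 72-hour replicates 3, 4 and 5 (up to 0.170). Most of the endothelial and stellate sum was Clec4g (22.7 to 65.3 CPM over all libraries). The part of other cells in the values of the 7 genes was not tested.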

How the data were processed

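RNA of sorted neutrophils was sequenced as stranded libraries in 3 libraries from spleen, 4 from liver at 24 hours and 5 from liver at 72 hours. The authors aligned reads (STAR 2.7.9a and GRCm38 per the submitters' processing notes) and deposited raw read counts per Ensembl gene from HTSeq-count, whose strand option is not given in the sources used here. RNA integrity limits of 7 (methods) and 8 (labels) are both stated.

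Summary lines of the counter (reads on no gene, 96.8% to 97.3% of uniquely aligned reads) were left out. Genes above 1 CPM in at least 3 libraries were kept. edgeR 4.0.16 (R 4.3.3, TMM factors of 0.740 to 1.24, prior count 2) fitted all 12 libraries in 1 model with group as the only term. DESeq2 1.42.0 and limma-voom (limma 3.58.1) were alternatives, with other scalings, filters, sample sets and the removal of each library. The scripts were tested on simulated data. GENCODE M21 matched 48349 of 48709 genes.

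The 7 genes and all gene lists were chosen with earlier results of these data known. Named were the 7 genes, genes within 10 kb of them, the 2 genes most correlated with each, and up to 4 called genes per list and comparison. Intervals of ratios cover counting error only. The 10 pairs of libraries with the same replicate number had deviations from their group means that correlated at -0.12 to 0.13, so the numbers were not taken to pair samples.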

Additional observations from a re-analysis of the deposited data

Results flagged for a closer look

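Csf3r stood lower than in spleen at 24 hours and slightly higher at 72 hours. The difference between these effects, which share the spleen libraries, is the contrast of 72 with 24 hours and was 0.77 on the log2 scale (edgeR adjusted p = 0.0241, range over 25 alternatives 0.00236 to 0.191). All 5 libraries at 72 hours were above all 4 at 24 hours. None of the 14 liver groups of the 7 genes held a library that Dixon's test set apart, and the spleen group, with 3 libraries, was too small for that test.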

How the results depend on the processing

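Over the alternatives, 468 of the values of single genes kept their direction and side of the threshold, 18 newly passed it, 32 no longer passed it and 7 changed sign. The cause was not tested. At 24 hours, genes called (1218) were 552 with genes that have no opposite-strand exons, 633 with spleen replicates 1 and 2 summed as 1 library (chosen after seeing the data) and 575 to 1320 when 1 library was left out. Of the 7 genes, limma-voom called 1 (and 1200 of all genes), filterByExpr 4 (and 1251 of all genes), and leaving out 1 library 2 to 3. At 72 hours, genes called (666) were 360 without opposite-strand exons, 287 without 72-hour replicates 2 and 3, 345 with the spleen pair summed and 314 to 835 with 1 library left out. Of the 7 genes, the DESeq2 Wald test, limma-voom, the fit without 72-hour replicates 2 and 3 and that with the spleen pair summed called 1 each, and leaving out 1 library 1 to 3. Between the times, genes called (561) were 986 by the DESeq2 Wald test, 143 without opposite-strand exons, 197 without 72-hour replicates 2 and 3 and 182 to 796 with 1 library left out. Of the 7 genes, 4 (S100a8, S100a9, Csf3r and Retnlg) were called without a filter, where 823 of all genes were called. The fit of only the groups compared called 2 of the 7, and 571 of all genes. With a log2 fold change of at least 1, without opposite-strand exons or without 72-hour replicates 2 and 3, 0 of the 7 were called. Leaving out 1 library gave 0 to 2. With the replicate number as a block, 1302, 874 and 599 genes and 2, 2 and 4 of the 7 were called, the last 4 being the same genes. Hdc changed sign without having been called. At 24 hours its log2 difference was -0.46 to 0.19 with 1 library left out, and at 72 hours it was -0.0040 with the replicate block, -0.11 without 72-hour replicates 2 and 3, -0.15 with the spleen pair summed and -0.16 to 0.50 with 1 library left out (-0.13 without spleen replicate 2 and -0.06 without 72-hour replicate 3). Upper-quartile scaling moved the share of higher calls between the times from 36.7% to 25.6%. Low counts on genes and 3 spleen libraries, 1 of them apart, limit what these comparisons can show.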

Other observations

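Annotated genes within 10 kb of the 7 were Slc12a5 (4951 bases from Mmp9), Mrps15 (2484 bases from Csf3r), Slc27a2 (on the opposite strand, 5423 bases from Hdc), Gabpb1 (8142 bases from Hdc) and Vps26a (7027 bases from Srgn). None overlapped one of the 7 genes and none was called in any comparison.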
